A study of Mus musculus with 4 samples.

Results

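Conventional type 1 dendritic cells (cDC1) are a rare class of antigen-presenting cell. Their development depends on the transcription factors Irf8, Batf3 and Id2. They carry the chemokine receptor Xcr1, take up material of dead cells through Clec9a, and are known for cross-presentation, the loading of captured antigen onto MHC class I for CD8 T cells. In tumours they are known as carriers of tumour antigen to lymph nodes and as a source of chemokines for T cells.

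The cells came from tumours of the mouse melanoma line B16-F10 that had grown for 14 days in C57BL/6 mice after implantation with matrigel. The groups were Adar1-null tumours (libraries S1 and S2) and control tumours (S3 and S4). Adar1 is an enzyme that edits double-stranded RNA, and the mutation is in the implanted melanoma line, so the host's own dendritic cells are not labelled as mutant in either group. All 4 samples are CD45-positive cells selected with magnetic beads after digestion with collagenase P and DNase I, and all were counted by unique molecular identifiers (UMIs) in droplets, with 1 library a sample. The library names in the deposited barcodes show the group and no replicate number. The series names 2 tumours of each kind, and nothing says that they grew in separate animals, so p-values cover the spread between these libraries only.

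Members were selected on their own counts. A cell was taken as cDC1 when it had at least 2 UMIs over Xcr1 and Clec9a together, at most 1 over Cd3d, Cd3e and Cd3g, at most 5 over C1qa, C1qb and C1qc, under 10 over Mlana and Dct, and did not have both Ccr7 (1 or more) and Fscn1 (2 or more). These limits leave out T cells, C1q macrophages, melanoma cells and mature migratory dendritic cells. The rule gave 102 cells among 8677 kept cells, with 19 in S1, 19 in S2, 29 in S3 and 35 in S4. Their median depth was 10201 UMIs a cell (range 4188 to 24778), against 8058 over all kept cells. None of the 102 had a doublet score over 0.1, a score that 108 of all kept cells passed.

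The libraries held 1957 to 2786 kept cells, with medians of 7694 to 8881 UMIs a cell. S4 stood apart: its macrophage markers summed to 17814 CPM (UMIs scaled to a common total) over all kept cells against 5147 to 7886 in the other libraries, and its erythroid markers to 812.6 against 1.81 or less. In the cDC1 cells, S2 and S4 differed most, with a chi-square of 4.49 per gene, and S1 and S3, of different groups, least, with 1.64. In melanoma cells, the mutated gene, Adar, was at 9.80 and 13.01 CPM in the Adar1-null libraries and at 11.6 and 11.7 CPM in the controls. Reads of a 3′ kit do not check a mutation elsewhere in the gene. Of the barcode sequences, 38 occurred in 2 libraries, and 2 of the cDC1 cells carried one of them.

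The class carried the cDC1 programme beyond the 2 genes that selected it. Of 9 further markers (Naaa, Wdfy4, Irf8, Batf3, Cadm1, Itgae, Tlr3, Ppt1 and Cd24a), 93 of the 102 cells had at least 5, and 69 had at least 7. The 9 cells with 4 or fewer all sat at exactly 2 selecting UMIs, and 7 of those 9 had no Xcr1 UMI. Both selecting genes were found in 73 cells, Xcr1 alone in 13 and Clec9a alone in 16. The sum of the 2 genes had a median of 4.5 UMIs and a maximum of 27.

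At the edge of the rule, 27 cells lay just inside, with exactly 2 UMIs, and had a median of 6 of the 9 further markers. The 71 cells just outside, with 1 UMI, had a median of 3, and 22 of them had at least 5. The C1q limit removed more cells than any other: 69 cells met every other condition, with a median of 165 C1q UMIs, and 45 of them had at least 5 of the 9 markers. Their median depth was 12388 UMIs, and the same marker count was not made in C1q macrophages. Only 2 of these 69 had a doublet score over 0.1. The removed share of otherwise fitting cells was 40.6% in S1, 56.8% in S2, 47.3% in S3 and 12.5% in S4 (13 of 32, 25 of 44, 26 of 55 and 5 of 40 cells). Among cells with at least 2 Cd3 UMIs, 11.6%, 13.02%, 11.2% and 14.0% had more than 5 C1q UMIs in S1 to S4, and the part of free RNA in the removal was not tested. Values without the C1q limit are given below for the results that it moved most.

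A few members had counts of another lineage. At least 5 UMIs over the plasmacytoid genes Siglech, Tcf4, Ccr9 and Ly6d were found in 5 cells, 4 of them in S2 and 1 in S3. Of these 5, 4 had no Xcr1 UMI, 2 had no Naaa UMI and 2 had Siglech. Monocyte markers summed to 1554 and 2893 CPM in S1 and S2 and to 1522 and 652.8 in S3 and S4. Most of this sum was Plac8, with 224, 467, 345 and 195 UMIs, and Ly6c2, with 28, 120, 73 and 10. The monocyte genes Chil3, Vcan and F13a1 had 0 to 4 UMIs a library, and single plasmacytoid-marked cells held 0 to 57 Ly6c2 UMIs. Macrophage markers, limited by the rule, summed to 281.5, 103.0, 225.6 and 760.2 CPM in S1 to S4. Apoe, one of them, was seen in 8 of 19, 2 of 19, 17 of 29 and 35 of 35 cells. This pattern was not particular to cDC1. In T cells Apoe was seen in 160 of 378, 63 of 398, 125 of 297 and 261 of 272 cells. In the Cd209a dendritic cells described below it was seen in 13 of 36, 7 of 36, 16 of 44 and 34 of 36.

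Xcr1 (chromosome 9, 123852315 to 123862029, GRCm38.p6) and Clec9a (chromosome 6, 129408862 to 129424764) are the genes that chose the cells, so their levels are a description. Levels are in CPM, relative to all UMIs of the class in a library and scaled by edgeR's TMM factor, and they are compared between classes or libraries, not between genes. In S1 to S4, Xcr1 reached 389.8, 360.5, 326.6 and 335.6 CPM. Clec9a was at 211.1, 220.0, 242.4 and 238.6 CPM. The 152 cells with Cd209a that stand for type 2 dendritic cells were chosen to have no UMI of either gene.

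The 4 other markers differed in how far they set the class apart. Naaa, a lysosomal amidase (chromosome 5, 92257660 to 92278181), was at 1294, 1264, 1323 and 1382 CPM, against 338 to 528 in Cd209a dendritic cells and 6.90 to 62.7 in dendritic cells with Ccr7 and Fscn1. Wdfy4, which cross-presentation of cell-bound antigen requires (chromosome 14, 32959547 to 33193855), was at 254.4, 332.4, 293.0 and 348.7 CPM, with at most 82.1 in any library of the Cd209a class. Irf8 (chromosome 8, 120736358 to 120756694) was at 2474, 2856, 2694 and 2663 CPM, and in Ccr7 Fscn1 dendritic cells it was still at 1719 to 2256. Batf3 (chromosome 1, 191098414 to 191108943) did not mark the class by itself: it was at 249.0, 323.0, 373.8 and 301.5 CPM in cDC1 and at 288.6 to 375.4 in Ccr7 Fscn1 dendritic cells, and these ranges overlap. Naaa, Wdfy4 and Irf8 thus had every cDC1 library above every library of the other 5 classes, and Batf3 had not.

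**Figure D1:**
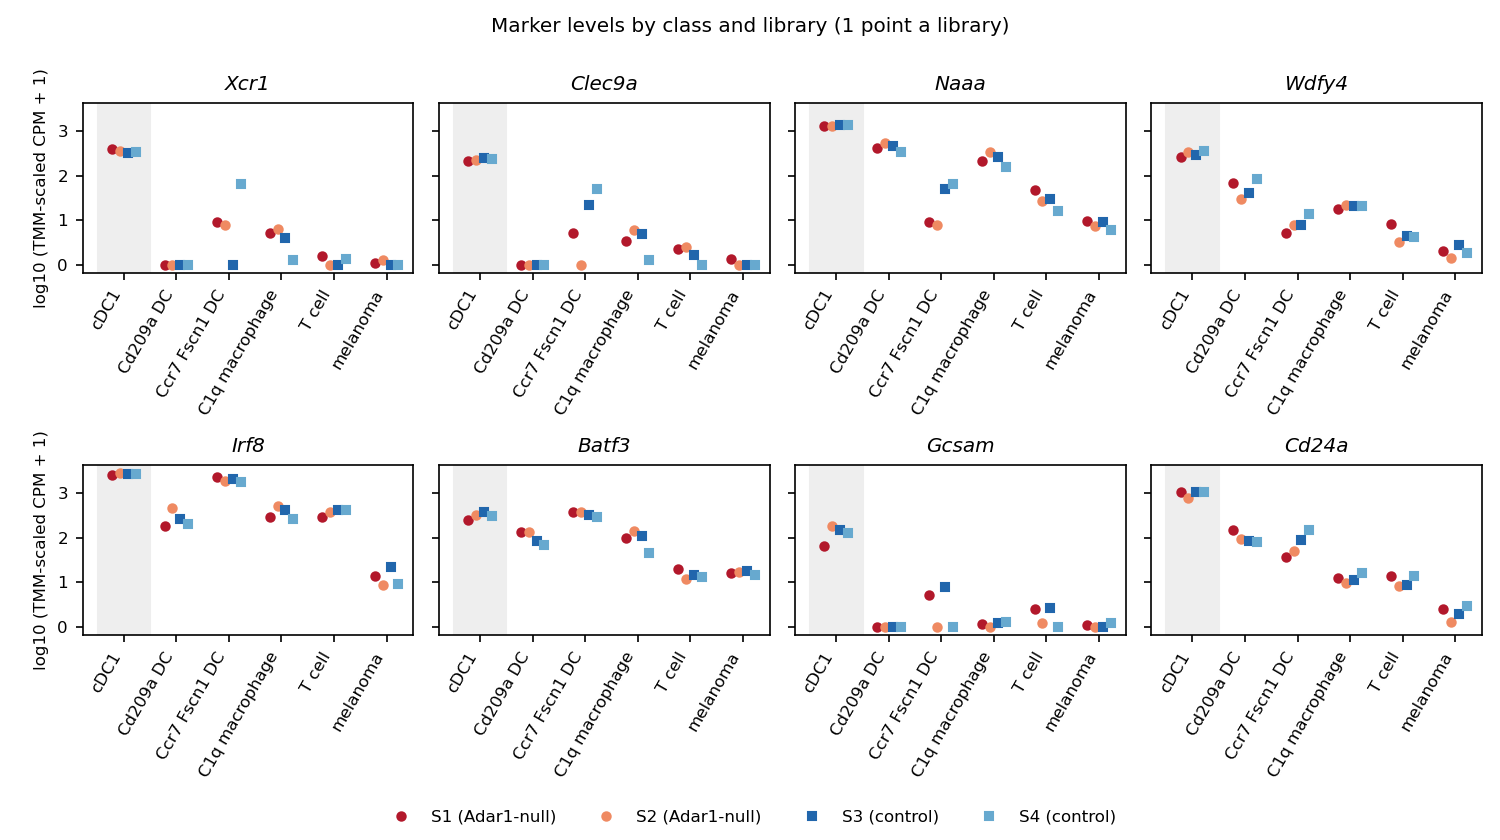
Levels of 8 genes in 6 classes, as log10 of TMM-scaled CPM plus 1, with 1 point for each library (red circles Adar1-null, blue squares control) and the cDC1 class shaded. The 4 cDC1 libraries sit together for Xcr1 and Clec9a, which selected the cells, and Batf3 is as high in Ccr7 Fscn1 dendritic cells (288.6 to 375.4 CPM) as in cDC1.

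Further genes were ranked by the ratio of their mean level in cDC1 to the highest mean of another class, among genes of at least 50 CPM in every cDC1 library. The first 6 were Gcsam, Itgae, Mycl, Ffar4, Cd24a and Sept3. Gcsam (chromosome 16, 45610440 to 45622867) was at 64.96, 178, 145 and 123 CPM and at 0 in every library of Cd209a dendritic cells. Itgae, the integrin CD103 (chromosome 11, 73090505 to 73147449), was at 130, 98.3, 118 and 207 CPM. In cells, it was seen in 61 of 102 cDC1 and in 1 of 152 Cd209a dendritic cells. Mycl, a MYC-family transcription factor of dendritic cells, was at 64.96, 56.2, 60.6 and 96.997 CPM. Cd24a, a surface glycoprotein long used to sort these cells, was at 1077, 782, 1040 and 1025 CPM against 77.6 to 151 in Cd209a dendritic cells. The remaining genes of the ranking were Ppt1, Wdfy4, Txndc15, Ahr, Slc8b1, Naaa, St3gal5, P2ry14 and Shtn1. These genes come from the cells the rule chose and are a description of them.

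The endosomal sensor of double-stranded RNA, Tlr3, was detected in 36 of the 102 cDC1 (35.3%), in none of the 152 Cd209a dendritic cells and in 3 of 1345 T cells. With every cell thinned to 3500 UMIs, the cDC1 share was 13.7%. Its level by library was 86.6, 18.7, 64.0 and 55.1 CPM, with S2 lowest on 4 UMIs. The adhesion molecule Cadm1 (chromosome 9, 47530170 to 47862280) was found in 61 cells. However, Cadm1 was also present in C1q macrophages at 40.3 to 92.6 CPM and in melanoma cells at 90.3 to 104.9 CPM. Its lowest cDC1 library, S2, was at 74.9 CPM. Flt3, the receptor for the growth factor of dendritic cells, was at 129.9, 126.4, 138.1 and 131.1 CPM, and Ccr7 Fscn1 dendritic cells reached 117.3 to 171.4.

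Some genes of functions tied to these cells were thinly represented, and others were not. Il12b, a subunit of interleukin 12, was seen in 9 of 102 cDC1 and in 32 of 90 Ccr7 Fscn1 dendritic cells (3.92% and 32.2% when thinned to 3500 UMIs). The chemokine Cxcl9 was seen in 45 cDC1, with 11, 7, 13 and 14 cells in S1 to S4. A Cxcl9 UMI was found in 44.1% of cDC1, in 27.6% of Cd209a and 37.8% of Ccr7 Fscn1 dendritic cells and in 8.85% of T cells. With cells thinned to 3500 UMIs, these shares were 31.4%, 23.7%, 21.1% and 4.83%. Cd274 (PD-L1) had 6, 3, 7 and 11 UMIs in S1 to S4 and Ido1 had 1 in all, too few for the test. MHC class II genes were abundant: H2-Ab1 was at 12099, 9639, 13139 and 13414 CPM, in the range of Cd209a dendritic cells (8385 to 14094).

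Of the 28 genes of the cDC1 identity list, 22 had their highest class mean in cDC1, and 16 had all 4 cDC1 libraries above every library of the other classes. Over all 18678 genes with a UMI, 1339 (7.17%) had their highest mean there, and 103 had all 4 cDC1 libraries above every other library. Among 18 transcription factors of dendritic cells the 2 numbers were 6 and 2. Among 29 genes of antigen capture and cross-presentation they were 7 and 3, and among 28 cytokines and chemokines 1 and 0.

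Part of the cDC1 cells carried transcripts of mitosis. A cell was called in cycle when, thinned to 3500 UMIs, it had at least 3 UMIs over 12 mitotic genes. This held for 3 of 19, 6 of 19, 9 of 29 and 7 of 35 cells (15.8%, 31.6%, 31.0% and 20%). In Cd209a dendritic cells it held for 2 of 36, 0 of 36, 1 of 44 and 2 of 36 cells (5.56%, 0%, 2.27% and 5.56%), so all 4 libraries had the higher share in cDC1. The 95% intervals (exact binomial, for counting error alone) were 3.38 to 39.6% and 0.680 to 18.7% in S1. They were 12.6 to 56.6% and 0 to 9.74% in S2. T cells were at 49.3 to 56.6%, so mitotic transcripts were abundant in the same suspensions, and the part of free RNA in the cDC1 calls was not tested. Top2a, a mitotic topoisomerase, had a UMI in 33 cDC1 and 5 Cd209a dendritic cells (17.6% and 1.97% of cells when thinned to 3500 UMIs). Summed over the 12 genes, cDC1 were at 644, 1231, 1832 and 443 CPM in S1 to S4. C1q macrophages were at 641, 366, 679 and 427 CPM, close to cDC1 in S1 and S4. With at most 1 C1q UMI, the cDC1 in cycle were 2 of 11, 2 of 13, 3 of 16 and 1 of 14 cells.

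Between tumour genotypes the share of cDC1 in cycle did not separate. The Adar1-null libraries averaged 23.7% ± 11.2 (SD, n = 2) and the controls 25.5% ± 7.80 (SD, n = 2), a difference of -1.83 points (exact two-sided permutation test over libraries, p = 1). Its sign depended on single libraries: the difference was 6.06 points without S1, -9.73 without S2, 3.68 without S3 and -7.35 without S4. It was also above 0 without the C1q limit (0.170 points), with the limit at 1 UMI (3.84 points) and without the plasmacytoid-marked cells (1.82 points).

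The cDC1 were a smaller part of the kept cells, melanoma cells included, in the Adar1-null libraries under the rule as given. Their share of kept cells was 0.963% (19 of 1972) and 0.971% (19 of 1957) in the Adar1-null libraries, against 1.48% (29 of 1962) and 1.26% (35 of 2786) in the controls. The groups did not overlap, but each library's exact 95% interval did (0.581 to 1.501% in S1, 0.586 to 1.51% in S2, 0.992 to 2.12% in S3 and 0.877 to 1.74% in S4). The means were 0.967% ± 0.00522 and 1.37% ± 0.157 (SD, n = 2 each), a difference of -0.400 points (exact two-sided permutation test, p = 0.333, the smallest that 2 against 2 libraries allow). Without cells of 10 or more Mlana and Dct UMIs, the shares were 1.19%, 1.14%, 1.73% and 1.42% in S1 to S4. The separation of the groups rested on the C1q limit. Without it the shares were 1.62%, 2.25%, 2.80% and 1.44%, which overlap, with a difference of -0.184 points. With at most 1 C1q UMI they were 0.558%, 0.664%, 0.815% and 0.503%, which overlap too, with a difference of -0.0480 points.

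Among dendritic cells of the 3 classes together (cDC1, Cd209a and Ccr7 Fscn1), cDC1 made up 20.4% and 25.7% in the Adar1-null libraries, against 31.2% and 41.7% in the controls (19 of 93, 19 of 74, 29 of 93 and 35 of 84 cells). The difference was -13.4 points, from 23.1% ± 3.71 to 36.4% ± 7.41 (SD, n = 2 each; exact permutation p = 0.333, the smallest possible). The C1q limit was then changed for cDC1 alone and kept at 5 UMIs for the Cd209a and Ccr7 Fscn1 classes. Without it the shares were 30.2% and 44.4% against 46.2% and 44.9%, a difference of -8.26 points. The groups were barely apart there, with 44 of 99 cells in S2 and 40 of 89 in S4. With it at 1 UMI the difference was -5.08 points, and the groups did not overlap. Without S4 the difference was -8.13 points. The denominator moved as well: Ccr7 Fscn1 dendritic cells numbered 38, 19, 20 and 13 by library, while the Cd209a class had 36, 36, 44 and 36. A share of selected cells does not give the number of cells in a tumour.

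**Figure D2:**
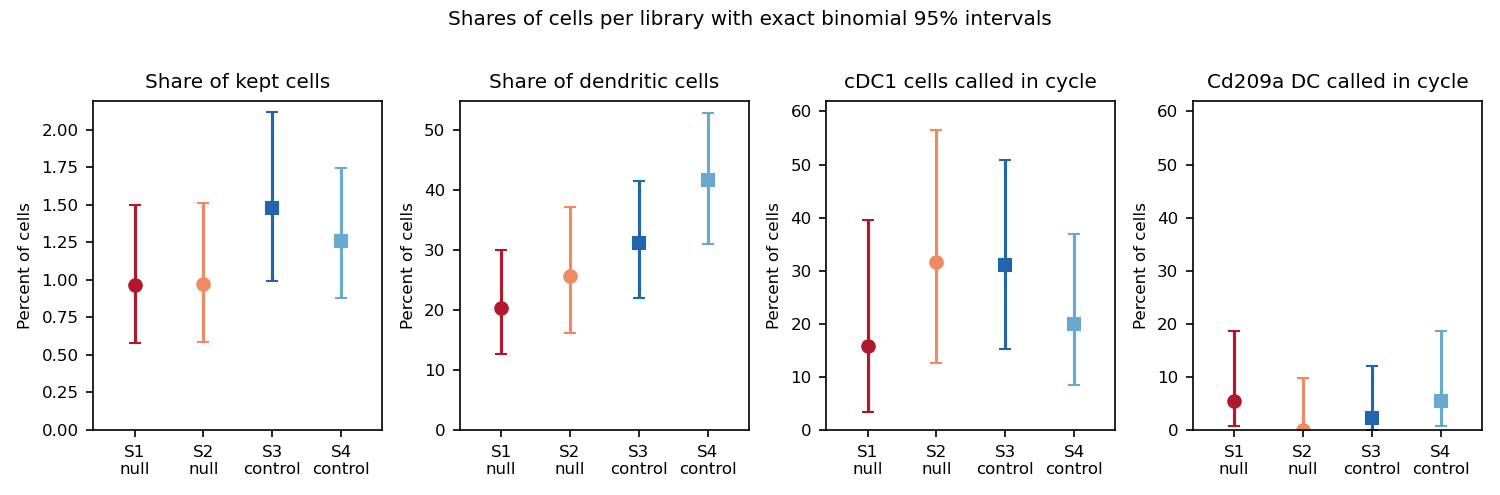
Percent of cells in each library (red circles Adar1-null, blue squares control) with exact binomial 95% intervals, for cDC1 among kept cells, cDC1 among the 3 dendritic classes, and cells in cycle among cDC1 and among Cd209a dendritic cells. The cDC1 share of kept cells was 0.963% and 0.971% in the Adar1-null libraries and 1.48% and 1.26% in the controls, and the shares in cycle (15.8% to 31.6% in cDC1) did not order by genotype.

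Gene levels within cDC1 were compared between Adar1-null and control tumours on counts summed per library (186574 and 196375 UMIs in S1 and S2, 297372 and 410281 in S3 and S4). Of 3013 genes with enough counts, 0 (0%) passed an adjusted p of 0.05 in the quasi-likelihood test of edgeR (Benjamini-Hochberg), where the smallest adjusted p was 0.717. At an unadjusted p under 0.05 there were 80 higher and 95 lower genes (5.81% of those tested), and DESeq2 gave 0 adjusted and 11 higher and 23 lower unadjusted. In 551 genes (18.3%) both Adar1-null libraries lay above both controls, and in 525 (17.4%) below. On CPM without the TMM factor the same counts were 732 and 371, so 66.4% of separated genes were higher in place of 51.2%. Without S1, S3 or S4 the test called 17, 24 and 9 genes, and without S2 it called 0. With the C1q limit at 1 UMI it called 2 genes, Isg15 and Mndal, both higher.

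**Figure D3:**
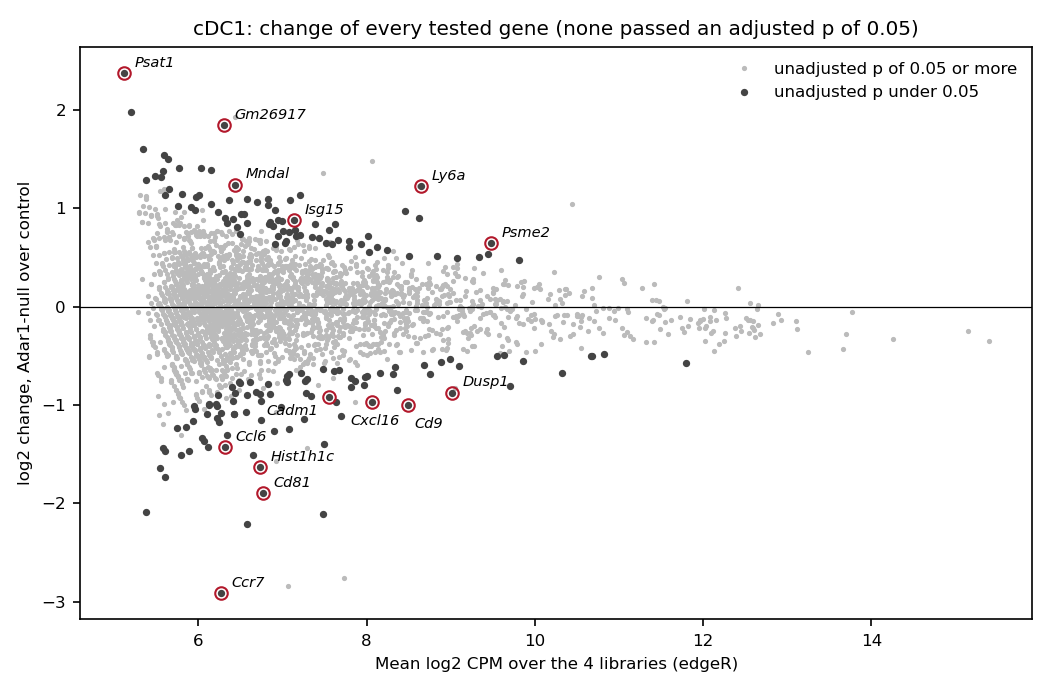
Change of each of the 3013 tested genes in cDC1 (log2, Adar1-null over control) against its mean log2 CPM, with the 175 genes of an unadjusted p under 0.05 in dark grey and 14 named genes circled. Points are spread about 0 on both sides, and none passed the adjusted threshold of 0.05.

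The genes with the smallest unadjusted p are named here for their values. None of them passed the adjusted test on the 4 libraries, where every adjusted p was 0.717. Cd81, a tetraspanin of the cell surface (chromosome 7, 143052750 to 143067930), was at 54.1 and 18.7 CPM in the Adar1-null libraries and at 141 and 126 CPM in the controls (log2 change -1.89, SE 0.41, unadjusted p = 0.000471). The groups did not overlap, and the change was past the threshold without S1, S3 or S4. Without the C1q limit it was 0.01. The related tetraspanin Cd9 was at 195 and 220 CPM against 350 and 485 (log2 change -1.003, SE 0.25). Hist1h1c, a linker histone, was at 37.9 and 42.1 CPM against 158 and 96.997 (log2 change -1.63). Tsc22d3, a gene that glucocorticoids induce, was at 54.1 and 51.5 CPM against 125 and 113 (log2 change -1.15). Fcgr2b, the inhibitory Fc receptor, was at 43.3 and 37.5 CPM against 74.1 and 152 (log2 change -1.51). Ccr7, which the rule used to remove mature cells, was at 27.1 and 0 CPM against 121 and 78.6, in 3, 0, 3 and 3 cells, and is given as a description.

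On the higher side, Ly6a (Sca-1, which interferon induces) was at 336 and 683 CPM against 273 and 173 (log2 change 1.22, SE 0.34, unadjusted p = 0.00416). Its control value in S3 was close to that of S1. Mndal, of the interferon-inducible Ifi200 family, was at 108 and 108 CPM against 43.8 and 47.2 (log2 change 1.24). Psat1, an enzyme of serine synthesis, was at 48.7 and 46.8 CPM against 10.1 and 7.86, from 9, 10, 3 and 3 UMIs (log2 change 2.38, SE 0.67). Cnbp, a nucleic acid-binding protein, was at 438 and 496 CPM against 212 and 288 (log2 change 0.90). S100a6, a calcium-binding protein, was at 552 and 304 CPM against 226 and 210 (log2 change 0.97). Gm26917, a noncoding gene whose reads can come from repeated ribosomal sequence, was at 86.6 and 136 CPM against 37.0 and 26.2 (log2 change 1.85) and is uncertain. With 1 library left out, the adjusted p was under 0.05 for Cd9 and Fcgr2b (without S3), for Hist1h1c (without S4), and for Ly6a and Gm26917 (without S1 or S3). Without the C1q limit, the changes were smaller for Fcgr2b (-0.052), Psat1 (0.86), Mndal (0.60), Cnbp (0.41) and Ly6a (0.79).

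The cDC1 identity genes did not pass the test in either direction. Of 28 listed genes 24 were tested, with 3 separated higher, 8 separated lower and 13 overlapping, and a median log2 change of -0.13 beside -0.01 over all 3013 genes, of which 18.3% were separated higher and 17.4% lower. Without the C1q limit the list's median was -0.50, with 2 of 25 changes above 0. Cadm1 was at 146 and 74.9 CPM in the Adar1-null libraries and at 212 and 202 in the controls (log2 change -0.91, SE 0.32, unadjusted p = 0.0133, adjusted p = 0.785). Its change was -0.35 without the C1q limit, -0.50 without S2 and -1.47 without S1. Rab7b, a regulator of endosome traffic, was at 238 and 257 CPM against 313 and 372 (log2 change -0.46). Gpr33, a chemoattractant receptor, was at 59.5 and 46.8 CPM against 13.5 and 31.5 from 4 to 12 UMIs a library (log2 change 1.17). Plbd1, a lysosomal hydrolase, was at 1023 and 997 CPM against 835 and 931 (log2 change 0.20).

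Of 18 listed transcription factors 11 were tested, 2 of them separated lower and none higher, with a median of -0.22. Cbfa2t3, a transcriptional corepressor, was at 184 and 197 CPM against 300 and 312 (log2 change -0.68, SE 0.24, unadjusted p = 0.0150). Id2 was at 1510 and 1395 CPM against 1559 and 1838 (log2 change -0.22, and -0.73 without the C1q limit). Among 12 tested receptors for growth factors and chemokines, 3 were separated higher and 5 lower, with a median of -0.20. Over all tested genes, 18.3% were separated higher and 17.4% lower, the background for both lists. Csf2rb, a shared chain of the GM-CSF receptor, was at 97.4 and 74.9 CPM against 118 and 157 (log2 change -0.69). Cxcr3, the receptor for Cxcl9 and Cxcl10, was at 37.9 and 28.1 CPM against 70.7 and 70.8, on 7, 6, 21 and 27 UMIs (log2 change -1.10). Ccr2, which guides monocytes and their descendants, was at 146 and 140 CPM against 108 and 105 (log2 change 0.44).

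Genes of antigen capture and cross-presentation showed 4 separated higher and 7 lower of 25 tested, with a median of -0.12. The background over all tested genes was 18.3% separated higher and 17.4% lower. Psme2, a subunit of the proteasome activator, was at 790 and 796 CPM against 535 and 482 (log2 change 0.65, SE 0.20, unadjusted p = 0.00682, adjusted p = 0.738). The immunoproteasome subunit Psmb8 was at 2496 and 2289 CPM against 2148 and 2063 (log2 change 0.19). Lgmn, a lysosomal protease, was at 16.2 and 37.5 CPM against 67.3 and 76.0, from 3, 8, 20 and 29 UMIs (log2 change -1.37). Without the C1q limit the Lgmn change was 0.70, the other way. Rab43, a small GTPase of cross-presentation, was at 75.8 and 42.1 CPM against 97.7 and 115 (log2 change -0.87).

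MHC class II presentation had 12 of 14 genes tested, 2 with a fitted change above 0, 3 separated lower and 1 higher, and a median of -0.28. The background over all tested genes was 48.9% above 0, 17.4% separated lower and 18.3% higher. H2-DMa, which loads peptides onto class II, was at 1391 and 1053 CPM against 1488 and 1990 (log2 change -0.51, SE 0.22, unadjusted p = 0.0400). The class II chain H2-Eb1 was at 9138 and 5786 CPM against 9492 and 11058 (log2 change -0.46). It was -0.17 without S2 and -0.84 without S1. H2-Ab1 had a log2 change of -0.28. Ctsh, a cathepsin, was at 281 and 257 CPM against 242 and 223 (log2 change 0.22). S2 was the lowest library for each of the 3 named class II genes H2-DMa, H2-Eb1 and H2-Ab1. The list's median was -0.14 without S2, -0.17 without S4, -0.48 without S1 and -0.53 without the C1q limit.

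Interferon-stimulated genes are the set that loss of Adar1 is best known to move, and in cDC1 they did not pass the test. Of 57 listed type I interferon-stimulated genes only 20 had enough counts. In these 20, 13 fitted changes were above 0, 7 genes were separated higher and 1 lower, and the median was 0.13. Over all 3013 genes, 48.9% of changes were above 0, 18.3% of genes were separated higher and 17.4% lower. Isg15, a ubiquitin-like protein (chromosome 4, 156199424 to 156200818), was at 189 and 140 CPM against 80.8 and 96.997 in the controls (log2 change 0.88, SE 0.30, unadjusted p = 0.0113, adjusted p = 0.785). The Isg15 change was 0.23 in cells with at least 3 Xcr1 and Clec9a UMIs, 0.57 with equal numbers of cells a library, and 2.51 (adjusted p = 0.0310) with at most 1 C1q UMI. Ifitm3, which restricts virus entry, was at 823 and 679 CPM against 458 and 579 (log2 change 0.53). Zbp1, a sensor of Z-form nucleic acid, was at 281 and 201 CPM against 155 and 163 (log2 change 0.60). For Ifi27l2a the Adar1-null libraries were at 498 and 515 CPM and the controls at 340 and 105 (log2 change 1.22, SE 0.51). Here S4 alone was low: without S4 the change was 0.57 with an adjusted p of 0.99956, and without S3, where S4 is the one control, it was 2.25 with an adjusted p of 1.46e-07. Irf7, a transcription factor of the interferon response, overlapped between groups at 249, 272, 222 and 286 CPM. Epsti1 was separated the other way, at 152 and 108 CPM against 209 and 199 (log2 change -0.65).

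Summed over all listed members with a UMI, type I interferon-stimulated genes in cDC1 made up 4185 and 3951 CPM in the Adar1-null libraries. In the control libraries they made up 3569 and 3059 CPM. In Cd209a dendritic cells of the same libraries the sums were 11106, 18161, 11772 and 8395 CPM, with S1 under S3. Plasmacytoid markers summed to 178.6, 908.2, 404.1 and 262.2 CPM in cDC1, highest in S2. Most of this sum was Bst2, at 157, 571, 347 and 246 CPM, which is itself on the type I interferon list. The plasmacytoid genes Siglech and Ly6d had 0, 8, 0 and 0 UMIs and 0, 28, 0 and 1 UMIs in S1 to S4. The list's median was below its value of 0.13 without the 5 plasmacytoid-marked cells (0.07, with 10 of 18 changes above 0), without S1 (0.08), without S4 (0.09), with equal numbers of cells a library (0.022), with at least 3 Xcr1 and Clec9a UMIs (0.09), with Ccr7 Fscn1 cells kept (0.07) and with no low-count filter (0.00088, 27 of 53 above 0). It was above it without S2 (0.28), without S3 (0.33), without the C1q limit (0.37, 29 of 42 above 0) and with at most 1 C1q UMI (0.42, 11 of 12 above 0). Monocyte markers were at 1554 and 2893 CPM against 1522 and 652.8, with S1 and S3 close, and the part of the monocyte and plasmacytoid markers in the interferon values was not tested.

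The interferon-gamma-induced list stood lower. Of 35 genes 15 were tested, 5 with a change above 0, 2 separated higher and 4 lower, and the median was -0.27. The background over all tested genes was 48.9% above 0, 18.3% separated higher and 17.4% lower. Irf1, a primary target of interferon gamma, was at 103 and 79.6 CPM against 53.9 and 65.5 (log2 change 0.59). Igtp, an immunity-related GTPase, was at 21.7 and 32.8 CPM against 57.2 and 49.8, from 4 to 19 UMIs a library (log2 change -0.93, and -0.044 without the C1q limit). The median moved to 0.15 without S2 and to 0.28 without the C1q limit, so its sign rested on these choices.

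In the same libraries, Cd209a dendritic cells and C1q macrophages had higher medians than cDC1 for both interferon lists. Ccr7 Fscn1 dendritic cells did so for the interferon-gamma-induced list only, over the genes tested in them. Summed over that list, Cd209a dendritic cells were at 3800, 6449, 4159 and 2902 CPM in S1 to S4. Macrophages were at 4734, 7822, 5212 and 2775 CPM, and at 8062, 13011, 8857 and 6216 for type I genes. In each, S1 lay under S3, so the groups overlapped. Over 19 type I interferon-stimulated genes tested in all 3 classes, the median log2 change was 0.13 in cDC1, 0.50 in Cd209a dendritic cells and 0.47 in C1q macrophages, with 12, 18 and 19 genes above 0. Over 15 interferon-gamma-induced genes the medians were -0.27, 0.47 and 0.61, with 5, 15 and 14 above 0. For 11 MHC class II genes the medians were -0.28, -0.37 and 0.61. The background of these counts differed by class: of all 2992 genes tested in both cDC1 and macrophages, 1465 were above 0 in cDC1 (median -0.01) and 1939 in macrophages (median 0.07). Of the 2454 genes tested in both cDC1 and Cd209a dendritic cells, 1213 and 1184 were above 0. In Ccr7 Fscn1 dendritic cells, 5 of 17 tested type I genes were above 0 with a median of -0.21, and 5 of 12 interferon-gamma-induced genes with a median of -0.07. The classes share libraries, so these values are not independent, and the genes were limited to those with enough counts in 102 cDC1 cells.

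**Figure D4:**
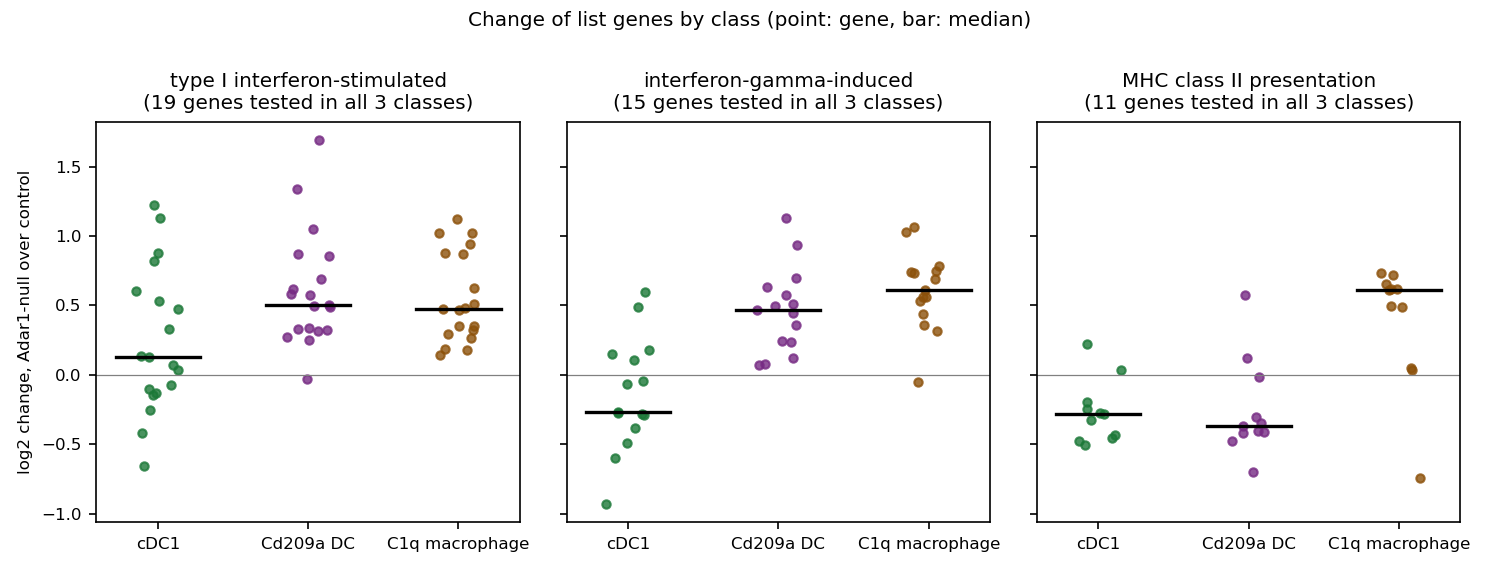
Log2 change (Adar1-null over control) of each gene of 3 lists in cDC1, Cd209a dendritic cells and C1q macrophages, for genes tested in all 3 classes, with a bar at the median. Medians of the type I interferon list are 0.13, 0.50 and 0.47, and cDC1 and Cd209a dendritic cells both lie below 0 for MHC class II (-0.28 and -0.37).

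Whether the response itself differed was tested gene by gene, as an interaction of class and genotype with the library as a block. Against Cd209a dendritic cells, 0 of 3474 genes (0%) passed an adjusted p of 0.05 in edgeR, with 60 higher and 104 lower at an unadjusted p under 0.05 and 0 adjusted calls in DESeq2 (4 higher and 5 lower unadjusted). So the larger interferon values of the Cd209a class were not shown gene by gene to differ from those of cDC1. Without S1, S2, S3 or S4 the count was 7, 1, 12 and 4.

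Against C1q macrophages, 23 of 10273 genes (0.224%) passed in edgeR and 0 in DESeq2. Of the 23, Ccr7 had been used by the rule. Of the 22 others, 18 had a lower change in cDC1 than in macrophages and 4 a higher one. The whole contrast leaned the same way, with 402 lower and 114 higher genes at an unadjusted p under 0.05 in edgeR. The macrophage class held 1667 cells in S4 and 702 to 911 in the other libraries.

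Of these calls, 3 are given with the values behind them. H2-Ab1, a class II chain, was at 12099, 9639, 13139 and 13414 CPM in cDC1 and at 3234, 4067, 3235 and 1191 in macrophages, where S4 was low. Its difference of -1.29 was -0.53 without S4 and -0.89 without S2, and did not pass in either. The chemokine Ccl5 was at 119, 23.4, 313 and 73.4 CPM in cDC1 and at 328, 330, 245 and 148 in macrophages. In cDC1 its groups overlapped, with S3 high and S2 low, and the difference of -2.18 was -1.30 (adjusted p = 0.861) without S2 and -1.44 (adjusted p = 0.356) without S3. Plet1, a membrane protein (chromosome 9, 50494525 to 50505639), was at 81.2, 28.1, 118 and 341 CPM in cDC1, where S4 held 130 of its UMIs in 16 cells, and at 4.22, 0.333, 0.430 and 0.413 CPM in macrophages, highest in S1. Its difference of -4.53 did not pass without S1 (-2.81, adjusted p = 0.874) or without S4 (-3.38, adjusted p = 1). No gene of the 22 passed in all 4 analyses that left out 1 library.

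**Figure D5:**
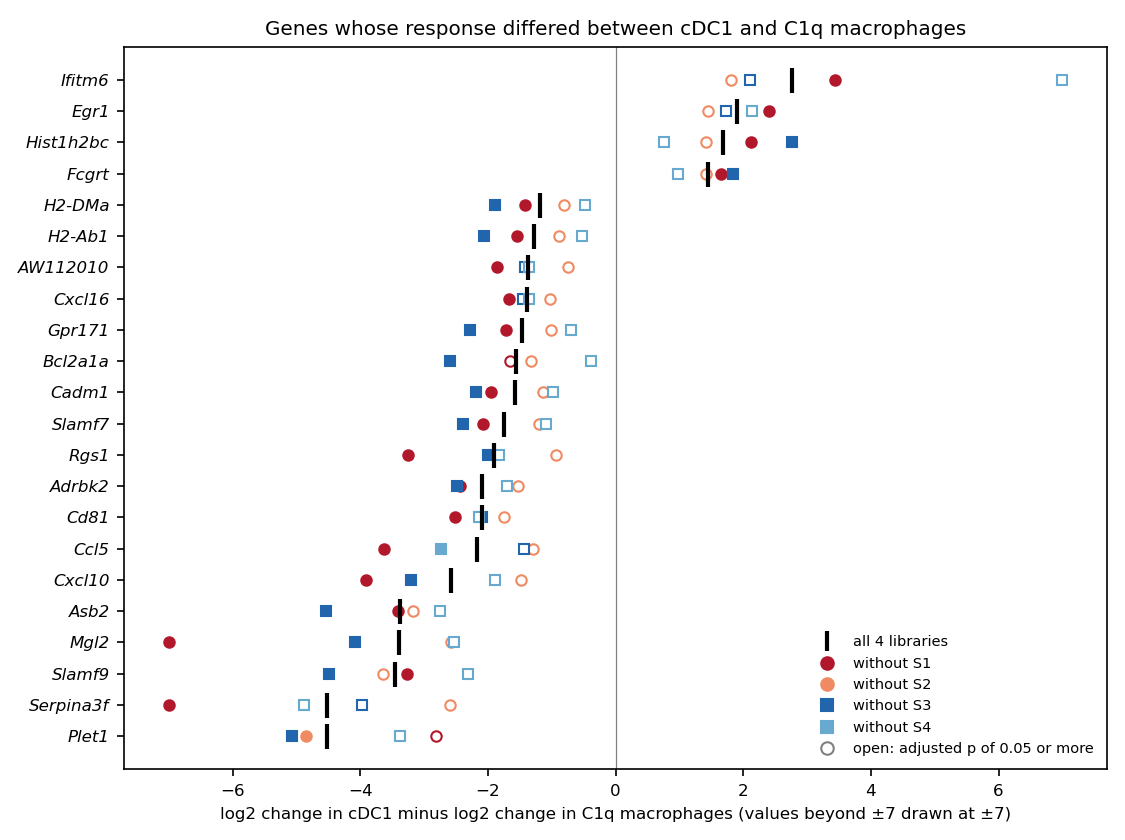
Difference of the log2 change (Adar1-null over control) between cDC1 and C1q macrophages for the 22 genes called, with all 4 libraries (black bar) and without each library in turn (filled where the adjusted p stayed under 0.05). Without S1 20 and without S3 16 of the 22 stayed called, and without S2 or S4 1 each.

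Of 28 listed cytokine and chemokine genes 11 were tested, with 2 changes above 0, 1 gene separated higher and 2 lower, and a median of -0.45. The background over all tested genes was 48.9% above 0, 18.3% separated higher and 17.4% lower. Cxcl16, the ligand of Cxcr6 on T cells, was at 195 and 117 CPM in the Adar1-null libraries and at 303 and 304 in the controls (log2 change -0.97, SE 0.28, unadjusted p = 0.00404), and without the C1q limit its change was -0.14. Ccl6 was at 10.8 and 51.5 CPM against 94.3 and 83.9 (log2 change -1.43), and without the C1q limit its change was 0.58, the other way. Ccl3 was at 86.6 and 79.6 CPM against 40.4 and 57.7 (log2 change 0.74). The list's median was 0.14 without the C1q limit and -0.04 without S4.

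Maturation genes had a median of -0.43 over 11 tested, with 5 separated lower and none higher, beside 17.4% lower and 18.3% higher over all tested genes. The rule itself limits this list, since cells with Ccr7 and Fscn1 were removed. Cd83 was at 168 and 215 CPM against 300 and 239 (log2 change -0.47). Bcl2a1b, a survival factor with near-identical copies that can share reads, was at 330 and 248 CPM against 384 and 485 (log2 change -0.59). Birc3, an inhibitor of apoptosis, was at 37.9 and 23.4 CPM against 80.8 and 47.2 (log2 change -1.04). Without S2 the list's median was -0.01, and mature dendritic markers summed to 4.68 CPM in S2 against 125, 216 and 144 in S1, S3 and S4.

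For each list in this paragraph, the background over all tested genes was 18.3% separated higher and 17.4% lower. Genes of nucleic acid and pattern sensing had 6 tested, with 2 separated higher, 3 lower and a median of -0.23. Among the 6 was Unc93b1, the escort of endosomal Toll-like receptors, at 292 and 257 CPM against 370 and 380 (log2 change -0.44). Costimulatory and checkpoint ligands had 6 tested and 1 separated in each direction, with a median of 0.02. Oxidative phosphorylation had 26 tested, with 6 separated higher and none lower and a median of 0.08, and hypoxia and glycolysis 11, with 2 higher, 3 lower and a median of -0.27. Cell cycle genes had 26 tested, with 1 separated higher, 2 lower and a median of -0.15. The higher gene was Mcm2, a replication helicase subunit, at 59.5 and 60.9 CPM against 30.3 and 28.8 (log2 change 1.03). The lower genes were H2afz (log2 change -0.25) and Rrm2 (log2 change -0.54). Stress genes of the unfolded protein response had 12 tested, with 1 separated higher, 4 lower and a median of 0.09. Among them was Xbp1, which cDC1 use strongly, at 97.4 and 93.6 CPM against 182 and 128 (log2 change -0.68).

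Immediate-early genes, which tissue digestion can induce, had 20 tested, with 3 separated higher, 7 lower and a median of -0.13. Dusp1, a phosphatase of this set, was at 384 and 262 CPM against 576 and 608 (log2 change -0.87, SE 0.24, unadjusted p = 0.00267). Egr1 was the other way, at 86.6 and 159 CPM against 40.4 and 76.0 (log2 change 1.06). The NF-kB response list had 13 tested, with 1 separated higher, 4 lower and a median of -0.31. For both lists, the background over all tested genes was 18.3% separated higher and 17.4% lower.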

How the data were processed

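The authors deposited 1 matrix of UMI counts for 8838 barcodes and 27998 genes, with no normalization. Cell Ranger, Seurat 2.2.0 and mm10 were used, per the submitters' processing notes, and the filter applied before deposit is not given in the sources used here. The lowest total was 3961 UMIs. Kept were cells of 500 or more genes whose mitochondrial share was at most 10%. The members and the gene lists were chosen with earlier results of these data known.

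Cells with at least 2 Cd209a UMIs and none of Xcr1 or Clec9a, cells with Ccr7 and Fscn1, and cells with 6 or more C1q UMIs served as comparison classes. Doublets were scored with Scrublet (scanpy 1.11.5, expected rate 0.02) and not removed. Counts were summed per library and tested with edgeR 4.0.16 (R 4.3.3; TMM, default low-count filter, robust quasi-likelihood fit, Benjamini-Hochberg) between genotypes with no covariates, and with the library as a block between classes, with DESeq2 1.42.0 as an alternative. The scripts were tested on simulated data. Shares were compared with exact permutation tests. Intervals are exact binomial (95%). No correction for free RNA was made. Positions are from RefSeq (GRCm38.p6).

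Named genes were the markers, list members of the highest level or the smallest unadjusted p among separated ones, the 10 of the smallest unadjusted p per direction, and the 15 of the highest ratio to other classes. Singly described genes outside this rule were chosen after their values were seen.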

Additional observations from a re-analysis of the deposited data

Results flagged for a closer look

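Genes appear here because their response to tumour genotype differed between cDC1 and C1q macrophages of the same libraries (edgeR interaction, adjusted p under 0.05 over 10273 genes). Each value is the log2 change in cDC1 minus the log2 change in macrophages. DESeq2 called none of them (smallest adjusted p 0.0685). None passed in all 4 analyses without 1 library.

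A lower change in cDC1 was found for 18 genes, beside 402 lower and 114 higher of all 10273 at an unadjusted p under 0.05. For Plet1 the difference was -4.53, Serpina3f was at -4.52, Slamf9 at -3.45, Mgl2 at -3.39, Asb2 at -3.39, Cxcl10 at -2.59, Ccl5 at -2.18, Cd81 at -2.10 and Adrbk2 at -2.10. The others were Rgs1 at -1.90, Slamf7 at -1.75, Cadm1 at -1.58, Bcl2a1a at -1.57, Gpr171 at -1.47, Cxcl16 at -1.40, AW112010 at -1.37, H2-Ab1 at -1.29 and H2-DMa at -1.18. Cxcl10, an interferon-induced chemokine, was at 32.5, 9.36, 40.4 and 55.1 CPM in cDC1 from 2 to 21 UMIs a library, and at 522, 824, 384 and 219 CPM in macrophages. Rgs1, a brake on chemokine receptors, was at 135, 32.8, 242 and 194 CPM in cDC1 and at 636, 777, 634 and 475 in macrophages. Gpr171 was at 249, 375, 226 and 244 CPM in cDC1 and at 24.0, 59.6, 18.6 and 7.09 in macrophages.

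A higher change in cDC1 was found for Ifitm6 (2.76), Egr1 (1.91), Hist1h2bc (1.68) and Fcgrt (1.45). Fcgrt, the neonatal Fc receptor chain, was at 217, 183, 178 and 236 CPM in cDC1 and at 149, 108, 238 and 596 in macrophages, highest in S4. Without S4 its difference was 0.98 and did not pass. Ifitm6 rested on 0 to 14 UMIs a library in cDC1.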

How the results depend on the processing

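Few cells limit precision: 19 to 35 cDC1 a library left 3013 of 11316 detected genes testable. No paired analysis was possible because the library names carry no replicate number. The settings added (no C1q limit, and without plasmacytoid-marked cells) were chosen after seeing the data. The count of genes called between genotypes, 0 on all libraries, was 12 with no low-count filter, 2 with at most 1 C1q UMI, and 0 to 24 leaving out 1 library. Against Cd209a dendritic cells, 0 became 2 with no low-count filter and 1 to 12 leaving out 1 library. Against C1q macrophages, 23 became 0 in DESeq2 and 3 to 61 leaving out 1 library. The share difference in cycle, -1.83 points, turned to 3.84 with at most 1 C1q UMI, 0.170 with no C1q limit and 1.82 without plasmacytoid-marked cells, and ranged from -9.73 to 6.06 leaving out 1 library. The other shares kept their sign, from -0.0480 to -0.511 points of kept cells and from -5.08 to -18.6 of dendritic cells. Of 48 genes followed, 41 kept their direction throughout. For genes named because their libraries were separated, leaving out 1 library can hardly turn the sign. This count is therefore no test of how stable the changes are. Without the C1q limit, Plbd1 was at -0.17, Psmb8 at -0.028, Lgmn at 0.70, Ccr2 at -0.024, Ccl6 at 0.58 and Cd81 at 0.0086, and Ctsh was at -0.012 without plasmacytoid-marked cells, and the cause was not tested.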

Other observations

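The cells that only the C1q limit left out had UMIs of cDC1 markers, at a median depth of 12388 UMIs a cell. C1q macrophages carried some of these markers too, with Naaa at 154 to 335 CPM and Irf8 at 256 to 510 CPM. How many macrophages reach the same marker counts was not tested. Naaa, the lysosomal amidase that marks cDC1, had at least 5 UMIs in 35 of the 69 left-out cells and in 86 of the 102 members. C1q itself was not absent inside the class: 75 of the 102 members had a C1q UMI and 48 had 2 to 5. Ly6c2, a marker of monocytes, was found in 38 of 102 cDC1, in 53 of 152 Cd209a dendritic cells and in 5 of 90 Ccr7 Fscn1 dendritic cells. It was also found in 871 of 1345 T cells, so it was not limited to monocytes here.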
